A study of Mus musculus with 12 samples.

Results

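The response of wild-type (WT) mouse macrophages to bacterial lipopolysaccharide (LPS) was read from 6 of the 12 RNA-seq samples of a study of the histone methyltransferase DOT1L in macrophages. The samples were chosen by their labels: 3 of WT bone marrow-derived macrophages given 10 ng/mL of LPS from Escherichia coli for 3 hours, and 3 of the same cell type left untreated. The cells had been grown from marrow of C57BL/6 mice in medium with L929 cell supernatant, which supplies M-CSF, the growth factor that turns marrow progenitors into macrophages. The mice are called myeloid DOT1L WT or KO with Lyz2, a myeloid gene, in brackets, and whether the WT mice carried a Cre allele is not stated in the sources used here. The other 6 samples, 3 untreated and 3 with LPS from KO mice, entered the estimate of spread and are compared at the end. The 3 samples of a group are given as biological replicates. Whether treated and untreated samples came from the same mice is not stated, so the p-values measure the spread among these samples, whatever its source.

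LPS is a cell wall component of Gram-negative bacteria. On macrophages it is handed by CD14 to the receptor complex of TLR4 and MD-2, which signals through 2 adaptor routes: MyD88, leading to NF-kB and MAP kinases, and TRIF, leading to IRF3 and type I interferon. Interferon then acts back on the same cells through factors of the STAT and IRF families. Macrophages are the tissue phagocytes best known for this response, which combines release of cytokines and chemokines with antimicrobial enzymes and with inhibitors that later limit it.

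The WT samples held 8642581 to 11905378 counts each over 1 transcript per gene, so that 3 counts correspond to 0.252 to 0.347 CPM (counts per 1e6 counts). Levels below are CPM after TMM scaling, which equalises the bulk of genes between samples, in the order of replicates 1, 2 and 3. Differences are log2 fold changes with a standard error (SE) from edgeR's quasi-likelihood test, called at a Benjamini-Hochberg adjusted p under 0.05 over 11984 genes tested. The first principal component, 83.2% of the variance, separated treated from untreated samples. Replicate 1 of both WT conditions stood apart from the other samples on the second component (38.1 and 41.8 against -14.5 to 4.4), which held 4.7%. The untreated and the treated samples were deposited in separate tables, so anything that differed between their preparation cannot be told apart from the treatment. In bulk RNA, fewer cells of a type and less RNA per cell cannot be told apart either.

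LPS changed most of the genes measured. Of 11984 genes, 3309 rose (27.6%) and 3567 fell (29.8%), and with a change of at least 2-fold 1541 rose (12.9%) and 1569 fell (13.1%). The large changes were mostly increases: 804 genes rose and 428 fell at least 4-fold, 187 and 14 at least 32-fold, and 40 and 1 at least 256-fold. These are fitted changes, which for genes without an untreated read can exceed what the reads bound. Ifnb1 and Gbp11 are among the 40, though their reads show only at least 131-fold and 215-fold. The reads of another cytokine gene among the 40, with none untreated and 84 with LPS, bound its change even less. Of the 6876 called genes, 6852 moved the same way in all 3 pairs of same-numbered samples, which the labels do not give as pairs, and 6363 had groups that did not overlap. Both counts use the samples that gave the calls and add no separate support. Over all 11984 genes, called or not, the groups did not overlap in 6922 (57.8%). Without replicate 1 in both conditions, 3801 genes rose and 3619 fell, of which 1562 and 1471 at least 2-fold.

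The genes that rose at least 4-fold took 2.49% to 2.68% of the counts of an untreated sample and 22.0% to 23.6% with LPS. Scaling by total counts instead of TMM shifted the median log2 fold change of all genes from -0.05 to -0.59. Of the called genes, 48.1% were higher by TMM and 18.4% by total counts (1723 higher and 7621 lower). All 3567 genes called lower by TMM stayed lower, while 311 of those called higher turned lower. None of the genes that turned had a log2 fold change above 0.40, and of the 1541 that rose at least 2-fold, 1486 were called higher by both and none turned lower. For each gene list the numbers called higher and lower are therefore given by TMM and, in brackets, by total counts. The background for them is 27.6% higher and 29.8% lower by TMM, and 1723 higher and 7621 lower of 11984 by total counts.

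**Figure D1:**
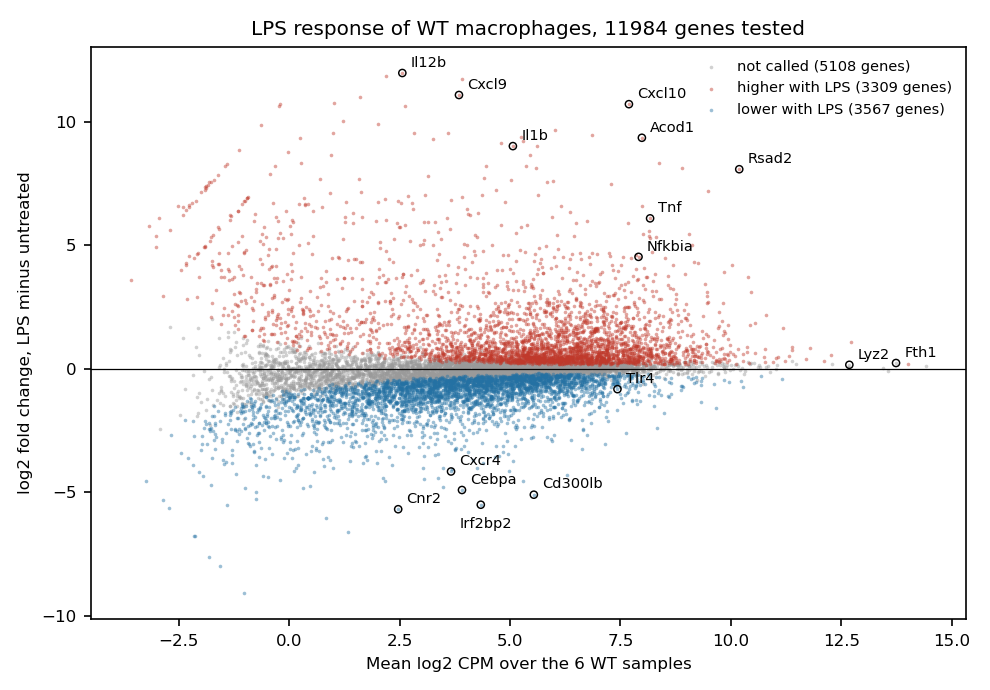
Each point is 1 of 11984 genes, with the mean log2 CPM over the 6 WT samples on the horizontal axis and the log2 fold change (LPS minus untreated) on the vertical axis. The 3309 genes called higher reach far further from 0 than the 3567 called lower, and abundant macrophage genes such as Lyz2 and Fth1 lie near 0.

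The receptors for bacterial products did not move together. Of 14 genes of the LPS receptor and TLR family, 10 rose and 3 fell (8 and 3 by total counts), with a median of 0.97. Tlr2, the receptor for bacterial lipopeptides, had 38.4, 46.2 and 36.6 CPM untreated and 628, 704 and 602 CPM with LPS, a rise of 3.99 ± 0.11 (adjusted p = 1.84e-12). Cd14, the LPS co-receptor, went from 149, 206 and 202 to 1037, 898 and 786 CPM (2.29 ± 0.14, adjusted p = 8.05e-09). For both genes every treated sample lay above every untreated one. The LPS receptor itself fell: Tlr4 had 235, 249 and 208 CPM untreated and 134, 146 and 112 CPM with LPS (-0.82 ± 0.11, adjusted p = 1.86e-05), again with no overlap. Its partner Ly96, which encodes MD-2, rose by 1.18 ± 0.22 from a low level. Among the endosomal nucleic acid receptors, Tlr3 rose by 3.17 ± 0.16, while Tlr13, which reads bacterial ribosomal RNA, fell by 1.41 on the log2 scale (SE 0.09). The other risers were Tlr1, Tlr6, Cd180, Tlr7, Tlr8 and Tlr9, with log2 fold changes from 0.86 to 1.55, and the groups of Tlr9 overlapped. Tlr9 was not called without untreated replicate 3 (adjusted p = 0.0554) or treated replicate 1 (adjusted p = 0.0784). Tlr5, the flagellin receptor, fell from 38 reads over the untreated to 4 over the treated samples, 6.32-fold (95% interval 2.27 to 24.4) lower. The LPS-binding protein gene Lbp had 1.45, 1.19 and 1.11 CPM untreated and 1.95, 1.52 and 1.36 CPM with LPS and was not called.

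Downstream of the receptors, 15 of 27 adaptor and kinase genes rose and 3 fell (9 and 12 by total counts). The adaptor of the first route, Myd88, went from 44.6, 50.7 and 49 to 194, 239 and 207 CPM (2.15 ± 0.10, adjusted p = 2.64e-10). Ticam1, which encodes TRIF, had 35, 29.3 and 29.7 CPM untreated and 30.7, 27.3 and 22.7 CPM with LPS, and its groups overlapped (-0.22 ± 0.16, adjusted p = 0.257). By total counts Ticam1 was called lower (-0.77, adjusted p = 0.000574). The 2 adaptor genes thus differed in call, though that difference was not tested itself. The largest rises of the list were of Ripk2, the kinase of the NOD receptors (4.46 ± 0.09), the ubiquitin ligase gene Peli1 (3.96 ± 0.11), Map3k8, which encodes the MAP kinase kinase kinase TPL2 (3.14 ± 0.10), Irak2 (2.52 ± 0.12) and Ikbke (2.32 ± 0.10). Tab1, which activates the kinase TAK1, fell by 1.04 on the log2 scale, from 15.3, 16.1 and 17.8 to 7.34, 7.18 and 9.44 CPM. Traf3 (-0.48) and Irak4 (-0.38) fell by less, and single samples decided their calls. Traf3 was not called without untreated replicate 2 (adjusted p = 0.0956), untreated replicate 3 (adjusted p = 0.0592) or treated replicate 1 (adjusted p = 0.0642). Irak4 was not called without untreated replicate 1 (adjusted p = 0.104), treated replicate 2 (adjusted p = 0.0621) or treated replicate 3 (adjusted p = 0.0699).

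The NF-kB genes were nearly uniform. Of 17 subunits and inhibitors 16 rose and none fell (14 and 0 by total counts), with a median of 2.85, and 14 rose at least 2-fold. All 5 subunit genes were among them: Nfkb2 (3.44 ± 0.11), Rel (2.85 ± 0.15), Nfkb1 (2.72 ± 0.08), Relb (2.54 ± 0.18) and Rela (1.72 ± 0.11). Several inhibitors rose further. Nfkbia, which encodes the main cytoplasmic inhibitor IkB-alpha, had 49.2, 51.2 and 49.5 CPM untreated and 1293, 1059 and 1132 CPM with LPS, a rise of 4.54 ± 0.10 (adjusted p = 4.39e-13). The nuclear cofactor gene Nfkbiz went from 8.51, 6.11 and 7.22 to 722, 725 and 653 CPM (6.60 ± 0.14, adjusted p = 4.07e-13), the largest change of the list. Tnfaip3, the gene of the ubiquitin-editing enzyme A20, had 75.1, 108 and 105 and 1826, 1817 and 1699.6 CPM (4.21 ± 0.14, adjusted p = 1.05e-11). Every treated sample exceeded every untreated one for these 3 genes. Nfkbie (4.16), Bcl3 (3.85), Tnip3 (3.74), Nfkbib (2.85), Tnip1 (1.90) and Nfkbil1 (1.14) followed. The deubiquitinase gene Cyld (0.38) and Tnip2 (0.54) were called by TMM and not by total counts, and Tnip2 was also not called without replicate 3 of both conditions (adjusted p = 0.0569). The member without a call was Nfkbid, with 17, 23.8 and 30.9 CPM untreated and 19.9, 26.1 and 27.8 CPM with LPS.

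Early transcription factors, a list that includes immediate early genes, which act within the first hour of many stimuli, were split at 3 hours. Of 30 tested, 12 rose and 11 fell (11 and 17 by total counts), against 27.6% and 29.8% of all genes. Nr4a3, an orphan nuclear receptor gene, had 0.581, 0.281 and 0.295 CPM untreated and 42.6, 46.3 and 32.8 CPM with LPS (6.74 ± 0.23, adjusted p = 1.38e-11). Batf2, of the AP-1 family, went from 2.52, 1.83 and 1.55 to 156, 140.5 and 144 CPM (6.25 ± 0.13, adjusted p = 3.52e-13). Batf (3.70), Maff (2.93) and Ier3 (2.54) rose as well. Egr3, Egr2, Myc and Fos, all classic immediate early genes, were below their untreated levels, while other immediate early genes such as Nr4a3 and Ier3 were above. Egr3 fell from 25.2, 20.8 and 17 to 2.4, 1.41 and 2.16 CPM (-3.42 ± 0.25, adjusted p = 4.39e-08). Myc had 39.5, 45.6 and 46 CPM untreated and 7.49, 7.88 and 6.48 CPM with LPS (-2.58 ± 0.12, adjusted p = 4.46e-10), and Fos had 32.1, 49.5 and 56.8 and 10.3, 13.1 and 12.9 CPM (-1.92 ± 0.21). None of these groups overlapped. Egr2 (-1.89) and Nr4a1 (-2.19) fell too, the latter from no more than 4.74 CPM, so that Nr4a1 and its relative Nr4a3 moved in opposite directions.

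Cytokine genes rose almost as a block. Of 29 tested, 25 rose and 2 fell (24 and 4 by total counts), with a median of 4.68, or 4.61 with the 4 genes that had no untreated read set to their lower bound. Tnf, the first cytokine released, had 19.9, 42.2 and 45.3 CPM untreated and 2436, 2426 and 2541 CPM with LPS, a rise of 6.10 ± 0.26 (adjusted p = 1.6e-10). Il1b, the precursor of the fever cytokine IL-1 beta, went from 1.16, 1.76 and 1.4 to 724, 792 and 785 CPM (9.02 ± 0.22, adjusted p = 9.78e-13). The untreated spread of Tnf was wide, with replicate 1 at less than the others, but no sample of either group came near the other group. Il10, the gene of the main anti-inflammatory cytokine, was already called at this time, with 0.581, 0.703 and 0.737 CPM untreated and 14.7, 14.9 and 11.8 CPM with LPS (4.32 ± 0.21, adjusted p = 4.37e-10). Il27, which acts on T cells, had 0.194, 0.422 and 0.442 and 274, 246 and 206 CPM (9.32 ± 0.18).

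Several cytokine genes started from a handful of reads, so their size is given as a ratio of pooled CPM with an exact interval that covers counting error only. Il12b, the p40 subunit shared by IL-12 and IL-23, had 3 reads over the 3 untreated samples and 8988 with LPS, a ratio of 4505-fold (95% interval 1541 to 21847). Il6 (chromosome 5, 30013114 to 30019975, mm10) had 2 reads over the 3 untreated samples and 5970 with LPS, a ratio of 4488-fold (95% interval 1242 to 37068). Its treated levels were 234, 238 and 234 CPM, close together in all 3 samples. Ifnb1, which encodes interferon beta, had no read in any untreated sample and 262 reads with LPS (6.59, 12.8 and 10.4 CPM), at least 131-fold higher against 3 counts over the untreated group. The 2 cytokine genes that fell were Il16, a chemoattractant for CD4 cells (26.2, 20.9 and 15.8 CPM untreated, 0.749, 2.22 and 1.02 CPM with LPS; -3.89 ± 0.30), and Gdf15, whose groups overlapped because untreated replicate 1 was low (13.5, 46.3 and 44.2 against 9.74, 15.3 and 16.2 CPM; -1.33 ± 0.36). Mif, which macrophages hold in store, had 11.8, 13.4 and 12.8 CPM untreated and 10.2, 13.6 and 12.2 CPM with LPS and was not called (-0.61 and called lower by total counts).

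Chemokine genes, whose products draw leukocytes into tissue, held some of the largest changes of all. Of 23 tested, 20 rose and none fell (19 and 2 by total counts), with a median of 4.74, and their summed level was 2651 to 3046 CPM untreated and 23465 to 25216 CPM with LPS. Cxcl10, the interferon-induced ligand of CXCR3, had 5.32, 5.41 and 4.35 CPM untreated and 9294, 8273 and 7932 CPM with LPS, a 1690.4-fold change (10.72 ± 0.15, adjusted p = 6.12e-15). Measured per length, Cxcl10 was the second most abundant transcript of the treated cells, at 5569.5 ± 127 of the authors' RPKM (reads per kilobase of transcript and 1e6 reads; SD, n = 3). Its neighbours Cxcl9 and Cxcl11, which bind the same receptor, rose with it: Cxcl9 went from 0.387, 0.141 and 0.369 to 786, 529 and 650.4 CPM (11.09 ± 0.29, adjusted p = 1.7e-12), and Cxcl11 had 2 reads over the 3 untreated samples and 1641 with LPS, a ratio of 1234-fold (95% interval 341 to 10195). These 3 genes lie side by side on chromosome 5, Cxcl9 at 92321331 to 92328079, Cxcl10 at 92346638 to 92348889 and Cxcl11 at 92359544 to 92363296 (mm10). Ccl5, an attractant of T cells and monocytes, had 1.94, 1.41 and 1.11 CPM untreated and 983, 999 and 965 CPM with LPS (9.39 ± 0.18, adjusted p = 1.52e-13), and Cxcl3, a neutrophil attractant, rose from 4 reads by a ratio of 136-fold (95% interval 52.5 to 501). Ccl6 was the counterexample: at 936, 917 and 912 CPM untreated and 941, 921 and 917 CPM with LPS it stayed uncalled (0.01 ± 0.07; -0.54 by total counts, where it was called lower).

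Promoters were searched for the cytokine, chemokine and interferon-stimulated genes that have a RefSeq promoter under their symbol. Sequences are shown for the 4 with the largest fitted change whose promoter holds an NF-kB or an interferon motif. Each is the 250 bases before the RefSeq start site (GRCm38.p6, the assembly also called mm10), 5′ to 3′ on the strand of the gene, with matches to GGGNNTTTC (NF-kB) or GAAANNGAA (interferon) on either strand in capitals. They are Il6 (plus strand, chr5:30012864-30013113), Cxcl9 (minus strand, chr5:92328080-92328329), Cxcl10 (minus strand, chr5:92348890-92349139) and Ifi205 (minus strand, chr1:174031756-174032005).
Il6: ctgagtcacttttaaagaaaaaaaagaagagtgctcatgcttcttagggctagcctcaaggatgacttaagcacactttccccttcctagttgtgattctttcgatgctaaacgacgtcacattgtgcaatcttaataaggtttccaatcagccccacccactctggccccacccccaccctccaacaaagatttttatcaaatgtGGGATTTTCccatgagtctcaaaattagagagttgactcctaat
Cxcl9: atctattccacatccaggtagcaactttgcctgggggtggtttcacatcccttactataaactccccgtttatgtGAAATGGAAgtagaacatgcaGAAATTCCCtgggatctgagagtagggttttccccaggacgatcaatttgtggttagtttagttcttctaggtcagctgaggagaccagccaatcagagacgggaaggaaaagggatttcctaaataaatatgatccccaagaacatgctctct
Cxcl10: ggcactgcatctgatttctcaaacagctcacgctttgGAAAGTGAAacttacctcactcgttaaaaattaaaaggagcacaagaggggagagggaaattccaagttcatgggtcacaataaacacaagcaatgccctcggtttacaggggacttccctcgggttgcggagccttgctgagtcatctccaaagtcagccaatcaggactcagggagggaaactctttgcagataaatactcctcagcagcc
Ifi205: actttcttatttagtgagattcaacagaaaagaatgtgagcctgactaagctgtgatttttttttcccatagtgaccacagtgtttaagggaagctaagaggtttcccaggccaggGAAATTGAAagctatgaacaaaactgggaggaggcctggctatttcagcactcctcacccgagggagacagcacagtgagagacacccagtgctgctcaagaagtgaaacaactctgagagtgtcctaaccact
Counted from the start site, the NF-kB match of Il6 (GGGATTTTC) began at position -44. Cxcl9 held an interferon match (GAAATGGAA) at -175 and an NF-kB match in the other orientation (GAAATTCCC) at -154. Cxcl10 held GAAAGTGAA at -213 and Ifi205 held GAAATTGAA at -134. A match is a description of the letters and not evidence of binding, and a motif written more loosely would find others. Cxcl11 (10.04), Ccl5 (9.39) and Il27 (9.32) rose by more than Ifi205 (9.17). They had no promoter under their symbol and were not searched.

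Interferon-stimulated genes rose almost without exception. Of 54 interferon-stimulated antiviral genes tested, 53 rose and none fell (51 and 0 by total counts), with a median of 3.59, and 52 rose at least 2-fold, against 12.9% of all genes. Their summed level was 2679 to 4348 CPM untreated and 74455 to 87529 CPM with LPS. Rsad2, which encodes the antiviral enzyme viperin, had 81.7, 91.3 and 44.6 CPM untreated and 19979, 20513 and 18674 CPM with LPS, a 272-fold rise (8.09 ± 0.26, adjusted p = 1.07e-11). Its neighbour Cmpk2, a nucleotide kinase gene on the same stretch of chromosome 12, went from 33.9, 38.8 and 15.6 to 8317, 8337 and 8139 CPM (8.14 ± 0.31). Untreated replicate 3 held the lowest level of both, at 44.6 and 15.6 CPM. Ifit1, whose product binds uncapped viral RNA, rose from 25.1, 20.3 and 11.9 to 6864, 5542 and 5841 CPM (8.32 ± 0.26, adjusted p = 6.79e-12). Ifi205, of the cluster of DNA-sensing genes on chromosome 1, rose by 9.17 ± 0.38 and the myxovirus resistance gene Mx2 by 7.66 ± 0.19. Ifitm6, a membrane protein gene, was the exception, not called at 7.55, 5.62 and 3.54 CPM untreated and 10.3, 5.46 and 4.66 CPM with LPS. Members of the Ifi200, Ifit, Oas and Slfn families are close copies, as are the guanylate-binding proteins, and how the counts split reads between copies, or between overlapping genes on opposite strands, is not given in the sources used here.

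All 20 guanylate-binding protein and immunity-related GTPase genes tested rose (20 and 0 by total counts). These GTPases attack the vacuoles in which bacteria and parasites live. Their median was 6.33, or 5.84 with the 2 genes without an untreated read at their lower bound, and their summed level was 157 to 293 CPM untreated and 11497 to 14524 CPM with LPS. Gbp5 had 7.06, 4.5 and 2.29 CPM untreated and 3878, 2819 and 2883 CPM with LPS (9.47 ± 0.32, adjusted p = 2.02e-11). Iigp1 went from 3.48, 2.25 and 1.18 to 1101, 738 and 906 CPM (8.67 ± 0.35) and Gbp4 from 2.23, 1.27 and 0.59 to 488, 341 and 344 CPM (8.22 ± 0.35). Replicate 1 was highest in both conditions for Gbp5, Gbp4 and Iigp1, and the groups stayed far apart. Gbp11 had no read untreated and 428 with LPS, at least 215-fold higher. Tgtp1 rose from 2 reads by a ratio of 386-fold (95% interval 106 to 3199), and it has a near-identical copy, so its count is uncertain.

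Among the factors that drive this programme, 11 of 17 IRF and STAT genes rose and 2 fell (11 and 5 by total counts), and all 13 changed at least 2-fold. Irf1 had 44.1, 40.1 and 39.9 CPM untreated and 1993, 1921 and 1959 CPM with LPS (5.56 ± 0.12, adjusted p = 4.39e-13). Irf7, the amplifier of interferon alpha genes, went from 26.2, 27.8 and 16.6 to 568, 567 and 484 CPM (4.52 ± 0.22, adjusted p = 5.98e-10). Stat5a (4.23), Irf8 (3.24), Stat2 (2.96), Irf5 (1.61), Stat3 (1.60), Irf9 (1.55), Stat5b (1.50) and Irf2 (1.38) rose as well. Irf3, the factor that the TRIF route activates by phosphorylation, was not called at 28.5, 26.1 and 32.1 CPM untreated and 25.8, 25.5 and 30.0 CPM with LPS, nor was Stat6 (-0.07), the IL-4 relay. By total counts Irf3 (-0.64) and Stat6 (-0.62) were called lower. The corepressor gene Irf2bp2 fell from 151, 131 and 124 to 3.9, 2.73 and 2.5 CPM, 45.4-fold lower (-5.50 ± 0.14, adjusted p = 1.36e-12), and its relative Irf2bp1 fell by 1.12 on the log2 scale.

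**Figure D2:**
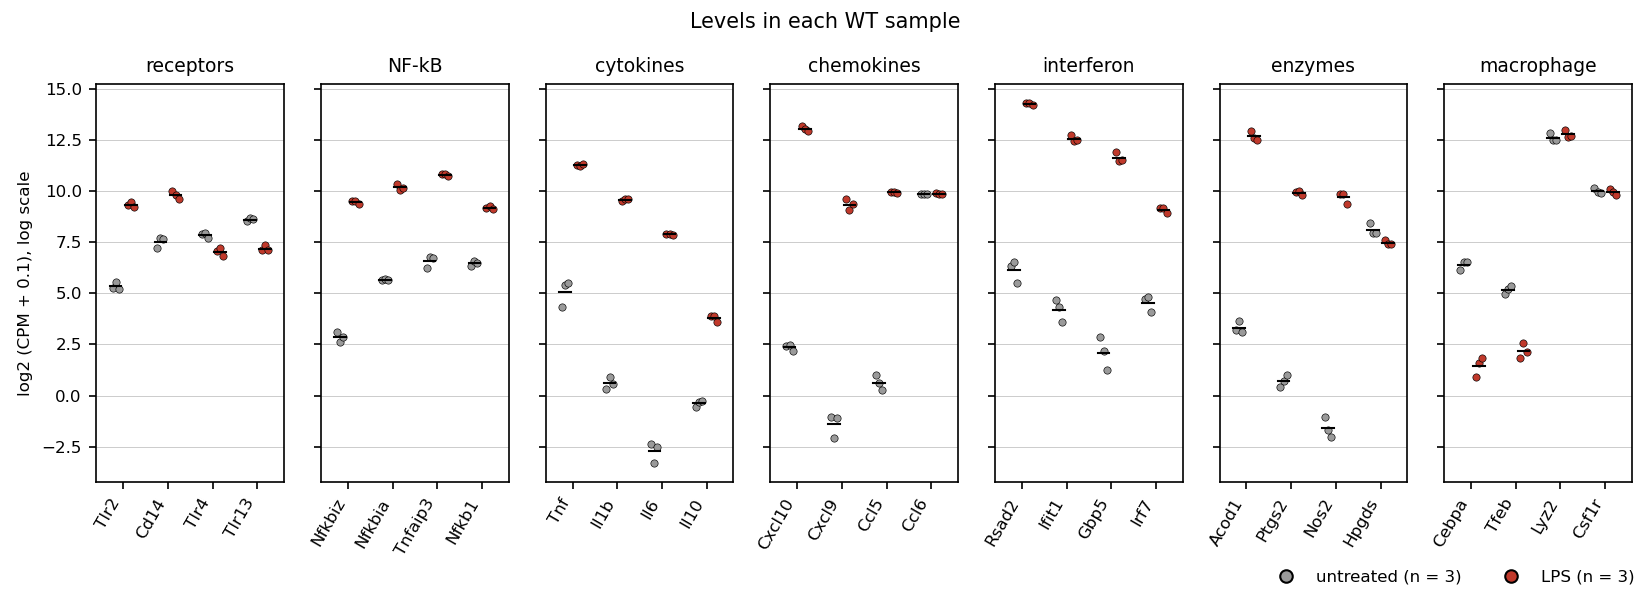
Each dot is 1 WT sample, grey untreated and red with LPS (n = 3 each), on an axis of log2 (CPM + 0.1), and the bar is the mean of the 3 log2 values. Groups lie far apart for Cxcl10, Il6 and Acod1, in the opposite direction for Cebpa, and on top of each other for Ccl6, Lyz2 and Csf1r.

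Of 29 negative feedback and mRNA decay genes, which limit the response, 15 rose and 10 fell (12 and 13 by total counts). These are 51.7% and 34.5%, against 27.6% and 29.8% of all genes. The cytokine signalling inhibitor genes differed among themselves. Socs3 had 2.32, 2.32 and 1.84 CPM untreated and 1345, 1021 and 983 CPM with LPS (9.01 ± 0.18, adjusted p = 2.55e-13), Socs1 rose by 7.80 ± 0.20 and Cish by 6.72 ± 0.22, whereas Socs5 (-0.99) and Socs6 (-1.28) fell. Zc3h12a, which encodes the RNase regnase-1 that degrades cytokine messages, rose from 11.1, 13.6 and 13.5 to 128, 129 and 124 CPM (3.31 ± 0.10). The AU-rich element binding proteins Zfp36l1 and Zfp36l2, which also promote mRNA decay, fell, while their relative Zfp36, the gene of tristetraprolin, rose (3.17). Zfp36l1 had 185, 70.6 and 73.8 CPM untreated and 13.2, 9 and 7.96 CPM with LPS (-3.47 ± 0.36, adjusted p = 1.92e-06), with untreated replicate 1 at more than the other 2 together, and Zfp36l2 had 268, 223 and 222 and 48, 38.7 and 44 CPM (-2.45 ± 0.12). The MAP kinase phosphatase gene Dusp2 rose by 3.83 ± 0.29, whereas Dusp6, specific for ERK, fell from 83.7, 111 and 117 to 8.54, 13.4 and 13.6 CPM (-3.11 ± 0.17, adjusted p = 1.74e-09), along with Dusp4 (-2.15) and Dusp7 (-1.89).

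Receptors for cytokines were also regulated: 21 of 35 rose and 7 fell (18 and 14 by total counts). By TMM this was 60% and 20%, against 27.6% and 29.8% of all genes. Cd40, the receptor for T cell help, had 3.87, 5.06 and 4.5 CPM untreated and 860.0, 890.1 and 888 CPM with LPS (7.60 ± 0.15, adjusted p = 1.52e-13), and Il15ra, which presents IL-15, rose by 5.42 ± 0.20 and Fas by 4.31 ± 0.14. Both chains of the IL-6 receptor fell while Il6 itself rose. Il6ra went from 60.5, 36.7 and 35 to 7.49, 5.96 and 4.78 CPM (-2.87 ± 0.24, adjusted p = 1.44e-07), and Il6st, the shared chain gp130, from 253, 219 and 227 to 105, 83.5 and 85.3 CPM (-1.35 ± 0.13, adjusted p = 8.96e-07), with no overlap for either. Il21r (-2.02), Tnfrsf21 (-1.14) and Il1rl1 (-1.13) fell as well. Csf1r, the receptor of the growth factor in the medium, had 1116, 987 and 970.5 CPM untreated and 1112, 988 and 891 CPM with LPS and was not called (-0.04 ± 0.10; -0.59 and called lower by total counts).

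Effector enzymes showed some of the steepest rises. Of 30 tested in arginine, nitric oxide, itaconate and prostanoid metabolism, 18 rose and 3 fell (15 and 10 by total counts). Acod1, the gene of the enzyme that makes itaconate, had 9, 12.2 and 8.62 CPM untreated and 7909, 6151 and 5680.5 CPM with LPS, a 658-fold rise (9.36 ± 0.34, adjusted p = 3.21e-11). Ptgs2, the inducible cyclooxygenase gene, went from 1.26, 1.55 and 1.92 to 995, 1037 and 881 CPM (9.24 ± 0.21, adjusted p = 4.41e-13). Nos2, the inducible nitric oxide synthase gene, had 9 reads over the 3 untreated samples and 21144 with LPS, a ratio of 3532-fold (95% interval 1860.4 to 7726), and Slc7a2, which imports its substrate arginine, rose by 5.73 ± 0.26. Ch25h, which makes 25-hydroxycholesterol, rose from 5 reads by a ratio of 113-fold (95% interval 47.9 to 349). The 3 that fell, each by less than 2-fold, were the constitutive cyclooxygenase gene Ptgs1 (-0.51) and the genes of 2 enzymes that use its product, Hpgds (-0.67) and Tbxas1 (-0.34), opposite to Ptgs2. The call of Tbxas1 was lost without untreated replicate 3 (adjusted p = 0.0512). Arg1, the arginase of alternatively activated macrophages, was too low to be tested.

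Glycolysis genes did not respond as a group. Of 31 tested, 10 rose and 6 fell (7 and 15 by total counts), against 27.6% and 29.8% of all genes, with a median of 0.14 that turned to -0.41 by total counts. The glucose transporter gene Slc2a6 had 13.1, 25.7 and 25.8 CPM untreated and 457, 503 and 448 CPM with LPS (4.44 ± 0.23), and Hk2, the first enzyme of the pathway, rose by 2.37 ± 0.09 and the regulator Pfkfb3 by 1.78 ± 0.13. Vegfa, the classic hypoxia target, fell from 163, 93.7 and 115 to 12.6, 6.47 and 9.78 CPM (-3.71 ± 0.25, adjusted p = 2.05e-08), and Egln1, an oxygen sensor gene, fell by 0.48 on the log2 scale. Aldoa, the aldolase gene, had 748, 910.2 and 925 CPM untreated and 999, 996 and 979.9 CPM with LPS and was not called (adjusted p = 0.0687). Its call rested on the method: it was called higher by DESeq2 (adjusted p = 0.0121), RLE size factors (adjusted p = 0.0317), limma-voom (adjusted p = 0.0493) and the replicate block (adjusted p = 0.004), and lower by total counts (-0.35, adjusted p = 0.00471). For the mitochondrial respiratory chain the direction rested on the scaling: 12 of 36 rose and none fell by TMM, against 0 higher and 14 lower by total counts, and no member changed 2-fold.

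Of 28 NRF2 and iron genes, 12 rose and 6 fell (9 and 15 by total counts). Their TMM shares were 42.9% and 21.4%, against 27.6% and 29.8% of all genes. Nfe2l2 itself, the oxidative stress factor NRF2, fell from 455, 321 and 319.8 to 190.0, 131 and 135 CPM (-1.26 ± 0.16, adjusted p = 1.04e-05), as did the heme oxygenase gene Hmox1 (-1.07 ± 0.15) and the glutathione synthesis gene Gclc (-1.56 ± 0.13). Slc40a1, the iron exporter ferroportin, had 289, 256 and 269.6 CPM untreated and 40.6, 47 and 40.5 CPM with LPS (-2.67 ± 0.10, adjusted p = 5.04e-11). Lcn2, which binds bacterial siderophores, rose by 2.76 ± 0.35, the ferroxidase gene Cp by 5.93 ± 0.44 and the metallothionein gene Mt2 by 2.75 ± 0.17. The NRF2 target genes Slc7a11 (2.56), Sqstm1 (1.65) and Txnrd1 (0.85) rose too, the last not called by total counts (0.31, adjusted p = 0.108). Fth1, the ferritin heavy chain and the most abundant transcript per length in both conditions, was not called at 15209, 11283 and 11648 CPM untreated and 17297, 13115 and 14544 CPM with LPS (0.24 ± 0.12). It was called higher with the replicate number as a block (adjusted p = 0.000141), without untreated replicate 1 (0.40, adjusted p = 0.00203) or without replicate 1 of both conditions (0.29, adjusted p = 0.000728). By total counts it was called lower (-0.31, adjusted p = 0.0109).

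Of 27 genes of cholesterol synthesis and uptake, 3 rose and 5 fell (2 and 17 by total counts), both below the shares of all genes by TMM. Untreated replicate 1 was lowest of its group for Hmgcs1, Sqle, Lss, Msmo1, Dhcr7 and Stard4. Hmgcs1, an early enzyme of the pathway, had 228, 371 and 337 CPM untreated and 276, 407 and 391 CPM with LPS and was not called. It was called higher with the replicate number as a block (0.21, adjusted p = 0.0019) or without replicate 1 of both conditions (0.19, adjusted p = 0.0381). Dhcr7, the last step of cholesterol synthesis, fell by 1.08 on the log2 scale, and Sqle (-0.99), whose groups overlapped, and Stard4 (-0.99) fell with it. The other 2 calls, Lss (-0.88) and Msmo1 (-0.60), had overlapping groups and were lost without untreated replicate 2 (adjusted p = 0.131 and adjusted p = 0.111), untreated replicate 3 (adjusted p = 0.0727 and adjusted p = 0.0835) or treated replicate 1 (adjusted p = 0.0924 and adjusted p = 0.0832), and that of Lss also without treated replicate 3 (adjusted p = 0.0538). Of 22 LXR targets and efflux genes, 3 rose and 8 fell (1 and 17 by total counts). The TMM calls made 13.6% and 36.4%, against 27.6% and 29.8% of all genes. Abca1, the cholesterol exporter gene, had 1106, 535 and 576 CPM untreated and 797, 442 and 395 CPM with LPS, with replicate 1 highest in both groups, and was not called (-0.44 ± 0.28). It was called lower with the replicate number as a block (adjusted p = 9.82e-07) and without treated replicate 1 (-0.82, adjusted p = 0.0207). The same held without replicate 1 of both conditions (-0.39, adjusted p = 0.0414) and by total counts (-0.99, adjusted p = 0.00306). Arl4c fell from 164, 95.2 and 94.9 to 17.1, 17.2 and 17.1 CPM (-2.78 ± 0.19), the desaturase gene Scd2 by 1.57 and the nuclear receptor gene Rxra by 1.76 on the log2 scale, while its partner Nr1h3, which encodes LXR alpha, rose by 1.06 ± 0.14.

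The identity of the cells was checked on 40 macrophage genes. Lyz2 had 7213, 5729.5 and 5806 CPM untreated and 7977, 6409 and 6622 CPM with LPS and ranked 3 by RPKM in both conditions. It was not called (0.16 ± 0.12). Lyz2 was called higher with the replicate number as a block (adjusted p = 0.00459), without untreated replicate 1 (0.30, adjusted p = 0.0169) or without replicate 1 of both conditions (0.20, adjusted p = 0.0276). By total counts it was called lower (-0.38, adjusted p = 0.00165). Csf1r was high in all 6 samples. Adgre1, the gene of the macrophage marker F4/80, had 711, 865 and 790.2 CPM untreated and 1136, 1376 and 1101 CPM with LPS (0.61 ± 0.10, adjusted p = 0.000176), a rise not called by total counts (0.06). Of 39 tested, 17 rose and 9 fell (7 and 23 by total counts), so the balance of this list turned with the scaling. By TMM this was 43.6% and 23.1%, against 27.6% and 29.8% of all genes. Transcription factors of the list changed in both directions. Cebpa, a factor of myeloid differentiation, fell from 69.8, 92.7 and 92.1 to 1.8, 2.93 and 3.53 CPM, 30.0-fold lower (-4.91 ± 0.18, adjusted p = 2.84e-11). Tfeb, a regulator of lysosomes, fell by 2.99, Bhlhe41 by 2.76 and Bhlhe40 by 2.35 on the log2 scale, all without overlap. Opposite to Cebpa, its relatives Cebpd (3.23 ± 0.16) and Cebpb (1.20 ± 0.16) rose, as did Spi1, the gene of the lineage factor PU.1 (1.22 ± 0.09), and the lysosomal gene regulators Tfec (2.55) and Mitf (1.67). The protease gene Ctsd (-0.07) and Gpnmb (0.11), both among the 10 most abundant transcripts per length in both conditions, were not called. Gpnmb was called higher with the replicate number as a block (adjusted p = 0.0324), without untreated replicate 1 (0.31, adjusted p = 0.00696) or without replicate 1 of both conditions (0.19, adjusted p = 0.00224). Both Ctsd (-0.62) and Gpnmb (-0.43) were called lower by total counts.

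Of 32 scavenger, phagocytic and Fc receptor genes, 17 rose and 5 fell (14 and 16 by total counts). Their TMM shares were 53.1% and 15.6%, against 27.6% and 29.8% of all genes. Clec4e, the Mincle receptor for mycobacterial glycolipid, had 39.2, 39.9 and 38.2 CPM untreated and 2115, 1530.3 and 1502 CPM with LPS (5.45 ± 0.16, adjusted p = 4.99e-12). Olr1, a scavenger receptor for oxidised lipoprotein, rose from 9 reads by a ratio of 155-fold (95% interval 81.2 to 339.7), and the activating antibody receptor gene Fcgr4 rose by 2.24 ± 0.15. Cd163, the haemoglobin scavenger, fell by 1.45 on the log2 scale. Cd36, another receptor for oxidised lipoprotein, had 1597, 2110.0 and 2264 CPM untreated and 1459.8, 2028 and 1992 CPM with LPS and was not called (-0.12 ± 0.14). It was called lower with the replicate number as a block (adjusted p = 0.0409) and by total counts (-0.67, adjusted p = 0.00183).

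Of 32 chemokine receptor, integrin and adhesion genes, 16 rose and 8 fell (14 and 15 by total counts). These are 50.0% and 25%, against 27.6% and 29.8% of all genes. The leukocyte ligand Icam1 went from 72.4, 81.5 and 83.7 to 3706, 3396 and 3526 CPM (5.48 ± 0.10, adjusted p = 7.5e-14), Vcam1 rose by 4.78 ± 0.36 and Ccrl2, a non-signalling chemerin receptor, by 5.44 ± 0.16. The formyl peptide receptor genes Fpr2 and Fpr1, which sense bacterial peptides, rose from 4 and 10 reads by ratios of 114-fold (95% interval 43.9 to 419) and 26.3-fold (95% interval 14 to 55.8). Of the chemokine receptor genes, Cxcr4 and Ccr2 fell. Cxcr4 had 75.9, 42.7 and 48.1 CPM untreated and 2.1, 3.23 and 3.75 CPM with LPS (-4.16 ± 0.26, adjusted p = 6.34e-09), and Ccr2 had 54.9, 24.5 and 19.8 and 18.3, 9.1 and 9.67 CPM (-1.44 ± 0.38, adjusted p = 0.00495). Cx3cr1, the fractalkine receptor gene, fell from no more than 2.46 CPM (-1.67 ± 0.39).

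Antigen presentation and costimulation genes rose together, 31 of 33 with 1 lower (22 and 1 by total counts), at a median of 1.60. Cd274, the gene of the inhibitory ligand PD-L1, had 117, 84.8 and 93.9 CPM untreated and 3434, 3007 and 3062 CPM with LPS (5.01 ± 0.14, adjusted p = 2.3e-12). Nlrc5, the activator of class I genes, rose from 33.3, 38.9 and 31.1 to 344, 390.0 and 355 CPM (3.40 ± 0.14), and Cd83 rose by 4.19 ± 0.13. B2m, the class I light chain, rose by 0.87 ± 0.25, with groups that overlapped since untreated replicate 1 (3162 CPM) exceeded treated replicate 2 (2849.6 CPM). B2m was not called by total counts, nor without treated replicate 1 (adjusted p = 0.0577). Cd200r1, an inhibitory receptor gene, fell from 180.4, 169.9 and 178 to 75.8, 94 and 89.6 CPM (-1.02 ± 0.09).

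Of 38 inflammasome and cell death genes, 25 rose and 6 fell (17 and 12 by total counts). Cflar, the caspase-8 inhibitor c-FLIP, had 146, 127 and 124 CPM untreated and 2084, 1818 and 1818 CPM with LPS (3.85 ± 0.10, adjusted p = 1.7e-12), and Gadd45b rose by 3.53 ± 0.09. Its relative Gadd45a fell from 61.8, 30.4 and 34.6 to 5.24, 4.85 and 3.75 CPM (-3.19 ± 0.26). Pmaip1 (-1.56), which encodes the pro-apoptotic NOXA, and Bcl2 (-1.08), a survival gene, both fell, while Mefv, which encodes pyrin, rose by 4.33 ± 0.42. The sensor genes Nlrp1b (-1.54) and Nlrc4 (-0.85) fell, whereas Nlrp3 (2.92) and Aim2 (2.36), also sensors, and the inflammatory caspase genes Casp1 (1.91) and Casp4 (3.06) rose. Mcl1 had 939.8, 695 and 702 CPM untreated and 797, 675 and 699 CPM with LPS and was not called (-0.65 and called lower by total counts).

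Secreted complement, matrix and protease genes rose in 21 of 34 cases and fell in 3 (18 and 9 by total counts). Plau, the gene of the protease urokinase, fell from 389, 957 and 1046 to 78.4, 181 and 195 CPM (-2.39 ± 0.35, adjusted p = 5.43e-05), with replicate 1 lowest in both groups and no overlap. Serpina3g and Serpina3f, protease inhibitor genes that are close copies on chromosome 12, rose from 5 and 4 reads by ratios of 1767-fold (95% interval 757 to 5445) and 1099-fold (95% interval 429 to 4035). The acute phase gene Saa3 rose by 6.12 ± 0.33. Spp1, which encodes osteopontin, rose by 0.58 ± 0.10 on TMM and by 0.03, without a call, on total counts.

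Of 33 purinergic, adenosine and other G protein-coupled receptor genes, a list that also holds P2X channels and RGS regulators, 12 rose and 16 fell (11 and 19 by total counts). The TMM calls made 36.4% and 48.5%, against 27.6% and 29.8% of all genes. Cnr2, the cannabinoid receptor of immune cells, had 33, 45.1 and 39.1 CPM untreated and 0.899, 0.809 and 0.569 CPM with LPS, 51.5-fold lower (-5.69 ± 0.20, adjusted p = 2.34e-11). S1pr1, which guides exit from tissue, went from 103, 64 and 63.7 to 6.44, 4.35 and 3.87 CPM (-4.00 ± 0.30). Neither gene had overlapping groups. Lpar6 fell by 3.45 on the log2 scale, and Gpr35 fell from 98 to 7 reads, 9.31-fold (95% interval 4.35 to 23.8) lower. In the other direction, Adora2a, the adenosine receptor that restrains macrophages, had 2 reads over the 3 untreated samples and 1216 with LPS, a ratio of 914-fold (95% interval 253 to 7557). Gpr84, a receptor for medium chain fatty acids, rose by 4.22 ± 0.30, Hcar2, the niacin receptor gene, by 3.99 ± 0.23 and Gpr85 by 3.36 ± 0.14.

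Cell cycle genes had the highest share of falls among the lists with at least 14 tested members: 27 of 46 fell and 6 rose (4 and 37 by total counts), with a median of -0.54. Most falls were small, and 7 reached 2-fold. Cdc6, which licenses replication origins, fell from 9.29, 21.1 and 18.6 to 0.45, 1.21 and 1.71 CPM (-3.80 ± 0.41, adjusted p = 2.5e-06), E2f2 by 2.61 and E2f7 by 1.87 on the log2 scale. The inhibitor gene Cdkn1a, which encodes p21, rose from 266, 288 and 289 to 2062, 1662 and 1809 CPM (2.71 ± 0.09, adjusted p = 1.49e-11), and so did the cyclin gene Ccnd2, from 10.6, 15.9 and 13.3 to 337, 302 and 287 CPM (4.53 ± 0.13). Mki67, the proliferation marker, had 707, 552 and 489 CPM untreated and 736, 579 and 541 CPM with LPS and was not called (-0.46 and called lower by total counts).

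**Figure D3:**
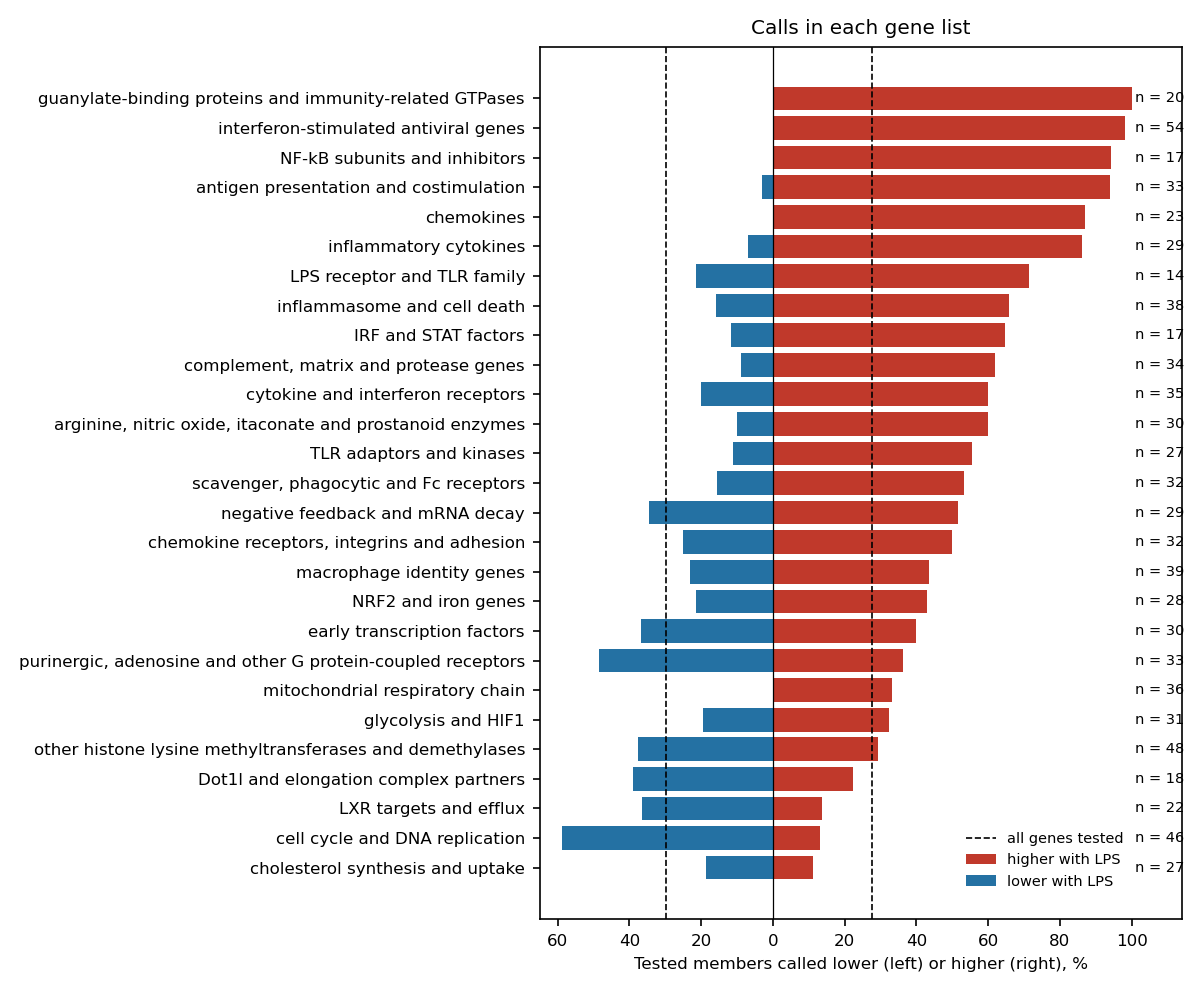
For each list with at least 14 tested members, the red bar gives the percentage of tested members called higher with LPS and the blue bar the percentage called lower, and n is the number tested. Dashed lines mark all 11984 genes (27.6% higher, 29.8% lower). Interferon, NF-kB, chemokine, cytokine and antigen presentation lists reach past 80% higher, while cell cycle genes reach 58.7% lower.

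Dot1l, the enzyme the study deleted in its other samples, was itself lower in treated WT cells, at 82.4, 111 and 111 CPM untreated and 67.3, 69.2 and 60.6 CPM with LPS (-0.63 ± 0.11, adjusted p = 0.0003), with no overlap. Of 18 Dot1l partners and elongation factors tested, 4 rose and 7 fell (3 and 11 by total counts). By TMM this was 22.2% and 38.9%, against 27.6% and 29.8% of all genes. Mllt6 rose by 2.54 ± 0.09, Aff1 by 1.92 ± 0.10 and Ell2 by 1.52 ± 0.08, while Ell fell by 1.90, Hexim1 by 1.06 and Cdk9, the kinase that releases paused polymerase, by 0.67 on the log2 scale. Among 48 other histone lysine methyltransferase and demethylase genes, 14 rose and 18 fell (5 and 35 by total counts), against 27.6% and 29.8% of all genes. Setdb2, an interferon-regulated methyltransferase gene, had 17.5, 14.9 and 10.6 CPM untreated and 262, 189 and 179 CPM with LPS (3.88 ± 0.18, adjusted p = 2.96e-10). Kmt5c fell by 2.05 and Kdm5b by 1.65 on the log2 scale.

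Outside the lists, the largest rises among well expressed genes (mean log2 CPM 2 or more) included Cd69, an early activation antigen, with 2.23, 2.39 and 2.06 CPM untreated and 1938, 1898 and 1736 CPM with LPS (9.70 ± 0.13, adjusted p = 6.12e-15), and Adamts4, a protease of cartilage matrix, which rose from 9 reads by a ratio of 776-fold (95% interval 408 to 1698). Among genes with 10 or fewer untreated reads, Edn1, the precursor of the vasoconstrictor endothelin 1, had 2 reads over the 3 untreated samples and 3374 with LPS, a ratio of 2536-fold (95% interval 702 to 20953). Mir155hg, the host transcript of miR-155, had 1 read over the untreated samples and 1623 with LPS, a ratio of 2440.2-fold (95% interval 437 to 96442). The largest falls included Cd300lb, an activating receptor gene, from 259, 278 and 297 to 5.54, 8.69 and 9.67 CPM (-5.10 ± 0.15, adjusted p = 3.91e-12), the stress gene Sesn1, from 225, 183 and 181 to 5.69, 10.8 and 7.96 CPM (-4.56 ± 0.19), and the transcription factor genes Foxo3 (-4.06 ± 0.20) and Lyl1 (-4.77 ± 0.20). Lhfpl2 (-4.30), Slc26a11 (-4.45), Zfp395 (-4.42), Ccsap (-4.42) and Plekhg3 (-4.01) fell to a similar degree. The groups overlapped for none of these genes. Measured per length, Cxcl10, Rsad2 and B2m were among the 10 most abundant transcripts with LPS and not without. Cxcl10 went from rank 7835 to 2 and Rsad2 from 3289 to 6, but B2m only from 11 to 9.

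Promoters of the response classes differed in letters and base composition, given as a description without a test. A RefSeq promoter of 300 bases (250 before and 50 after the start site, the first listed where a gene has several) was found for 9615 of the 11984 genes by symbol. The interferon motif GAAANNGAA, searched on both strands, was in 17.1% of the 615 promoters of genes that rose at least 4-fold. It was in 10.9% of those that rose 2- to 4-fold and in 5.54% of those that fell at least 2-fold. All tested genes with a promoter held it in 7.35% and all 27025 promoters of the table in 8.57%. The NF-kB motif GGGNNTTTC was in 7.32% (rose at least 4-fold), 6.84% (rose 2- to 4-fold) and 4.28% (fell at least 2-fold). Tested genes held it in 4.42% and the table in 4.46%. For the AP-1 motif TGANTCA the shares of these 3 classes were 11.1%, 6.15% and 5.07%, against 5.18% and 7.93%. TATAAA on the strand of the gene was in 9.43% of the promoters of genes that rose at least 4-fold, against 4.24% of tested genes but 8.88% of the table. The CRE motif TGACGTCA went the other way, with 1.3% against 3.36% of tested genes and 1.88% of the table. Matches to different motifs may share bases, and each was counted for its own motif.

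The same 615 promoters were less rich in CpG, the dinucleotide of housekeeping promoters, than those of tested genes. They were richer in it than the promoters of the table as a whole. Their median observed over expected CpG ratio was 0.541 and their median G and C content 57%, against 0.771 and 60.7% of tested genes, and 0.755 and 61.3% of genes that fell at least 2-fold. All 27025 promoters of the table had 0.3885 and 52.7%. Of the lists, the members that rose at least 4-fold held the interferon motif in 10 of 10 guanylate-binding protein and immunity-related GTPase promoters and in 18 of 35 interferon-stimulated gene promoters. The NF-kB motif was in 4 of 8 NF-kB family promoters, 4 of 11 chemokine promoters, 3 of 18 cytokine promoters and 0 of 35 interferon-stimulated gene promoters. Promoters were found for only part of these members: 10 of 19 GTPase, 35 of 46 interferon-stimulated, 8 of 11 NF-kB, 11 of 18 chemokine and 18 of 24 cytokine genes. Genes that rose at least 4-fold had a median of 7 exons and genes that fell at least 2-fold also 7, against 9 of all tested. Their median transcript lengths were 2906 and 3266 bases, against 2911.

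**Figure D4:**
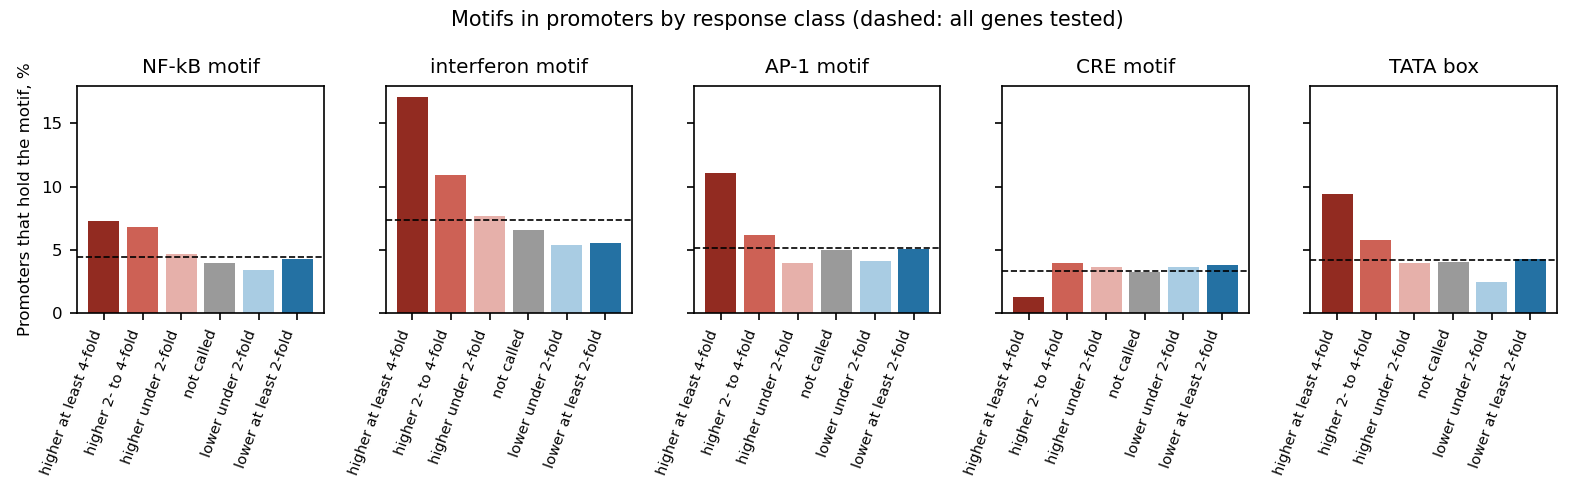
Each bar is the percentage of promoters (300 bases) in a response class that hold the motif, and the dashed line is the percentage over all 9615 tested genes with a promoter. The interferon motif falls from 17.1% in the class with the largest rises to 5.35% among small falls, while the CRE motif is rarest in the class with the largest rises.

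The same treatment was applied to macrophages of the DOT1L KO mice. Their comparison shares no sample with the WT one and called 3633 genes higher and 3700 lower. Across the 11984 genes, which are not independent replicates, the log2 fold changes of both genotypes correlated with a Pearson r of 0.973. Of the 3110 genes that changed at least 2-fold in WT, 3106 had the same sign in KO and 3033 were also called there. Cxcl10 changed by 10.72 in WT and 10.19 in KO, Tnf by 6.10 and 6.43, Cebpa by -4.91 and -5.43, and Dot1l by -0.63 and -0.37. The difference between the responses, tested as the genotype by LPS interaction, gave 0 called genes (0% of 11984) in edgeR and also in DESeq2 and limma-voom. At an unadjusted p under 0.05 there were 288. Without WT replicate 1 in both conditions, 24 genes were called, so the count of 0 depends on that pair. A p that misses the threshold does not show that the genotypes respond alike.

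**Figure D5:**
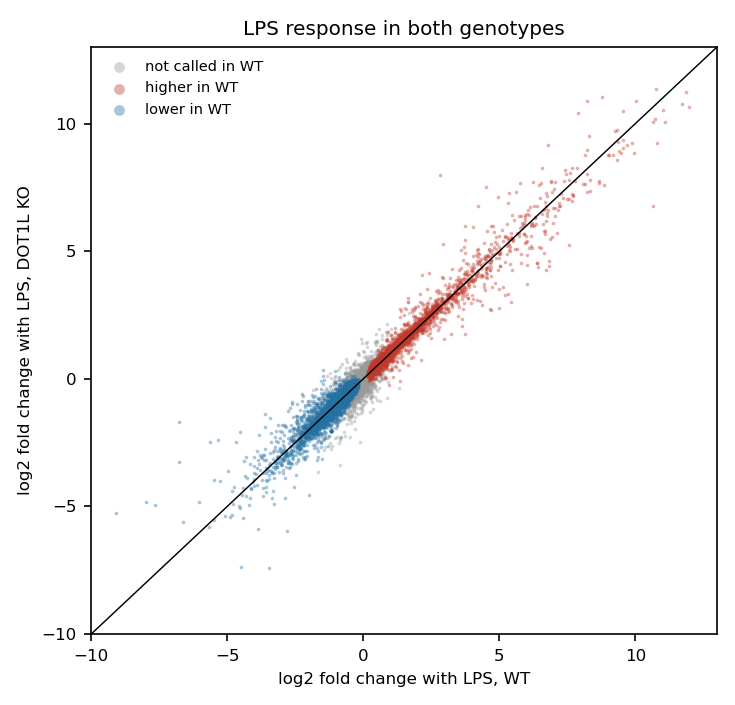
Each point is 1 of 11984 genes, with its log2 fold change with LPS in WT on the horizontal and in DOT1L KO macrophages on the vertical axis, coloured by its call in WT. The points follow the line of equality (r = 0.973), and 0 genes were called for a difference between the genotypes.

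Markers of neutrophils, erythroid cells, megakaryocytes, lymphocytes, mast cells and basophils were low, while summed dendritic cell, monocyte and stromal markers were higher with LPS. Neutrophil markers summed to 14 to 28.4 CPM untreated and 19.9 to 49.3 CPM with LPS, with 6 of 11 too low to be tested, and erythroid and megakaryocyte markers to no more than 0.774 CPM in any sample, with 5 of 9 at 0 reads. Lymphocyte markers summed to 25.7 to 50.8 CPM untreated and 25.8 to 38.2 CPM with LPS, mostly Cd4 (45.2, 25.7 and 23.7 CPM untreated and 33, 23.6 and 23.8 CPM with LPS), while 10 of 12 were too low to be tested. Mast cell and basophil markers summed to 15.2 to 22.4 CPM untreated and 6.44 to 12.7 CPM with LPS, nearly all from Kit, with 5 of 8 at 0 reads. Dendritic cell markers summed to 37.4 to 68.8 CPM untreated and 171 to 241 CPM with LPS, of which Bst2 and Fscn1 made the most. All 5 that were tested were called higher: Fscn1 (6.89), Bst2 (1.49), and on few reads Xcr1 with a ratio of 13.5-fold (95% interval 4.85 to 52.3), Btla of 9.32-fold (95% interval 3.59 to 30.7) and Zbtb46 of 3.57-fold (95% interval 1.49 to 9.43). Zbtb46 was not called by total counts (adjusted p = 0.0763), nor without untreated replicate 2 (adjusted p = 0.0709) or treated replicate 2 (adjusted p = 0.118). The defining Flt3 and Clec9a were too low to be tested. Monocyte markers summed to 39.9 to 92.4 CPM untreated and 190.1 to 266 CPM with LPS. The treated sum came chiefly from Vcan, which rose by 6.97 ± 0.16. Ccr2, with its values given above, held more of the untreated sum than Vcan and fell. Of 8 monocyte markers tested, 5 were called higher and 1, Ccr2, lower. Stromal markers summed to 21.4 to 23.2 CPM untreated and 91.5 to 127 CPM with LPS, chiefly from Kdr. Of 4 tested, 3 were called higher: Kdr (2.39), Cdh5 (1.05) and Pdgfrb, which went from 2 to 66 reads, a ratio of 49.6-fold (95% interval 13.2 to 418). Cdh5 was not called by total counts (0.51, adjusted p = 0.221). Its call was also lost without untreated replicate 1 (adjusted p = 0.0568), untreated replicate 2 (adjusted p = 0.0719) or treated replicate 2 (adjusted p = 0.233). The collagen genes were too low to be tested. The part of these cells in the results above was not tested.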

How the data were processed

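Messenger RNA of 12 samples was sequenced, 6 of them WT. The deposited values are raw read counts per RefSeq transcript and RPKM values computed by the authors, in separate tables for untreated and treated samples. Per the submitters' processing notes, STAR 2.5.2b, SAMtools 1.3.1 and mm10 were involved. How reads were counted, with which annotation and strand rule, is not given in the sources used here. For each of 24445 genes only the transcript with the most counts over all samples entered the tests, to count a gene once. The 117 transcripts without a gene name (0.447% to 1.22% of counts) were left out.

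Counts of all 12 samples were fitted in 4 groups with edgeR 4.0.16 (R 4.3.3): filterByExpr, TMM, robust quasi-likelihood test, contrast of treated against untreated WT, checked on simulated data. The SE is the log2 fold change over the square root of F. TMM factors were 1.151 to 1.22 untreated and 0.7724 to 0.8472 with LPS, and no spike-in was used here. Genes with 10 or fewer reads in a group have a ratio of summed CPM with an exact binomial interval instead, and those with no read a bound against 3 counts. Same-numbered treated and untreated samples deviated together (r = 0.48, 0.50 and 0.24 in WT, 0.22, 0.43 and 0.18 in KO), so a fit with the replicate number as a block was added. This pairing comes from the data and not from the labels.

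Members and the 34 gene lists were chosen with earlier results of these data known. Named genes are a core set, the 15 genes of largest change per direction with mean log2 CPM 2 or more, up to 10 genes of few untreated reads, up to 5 called members of each list per direction, the uncalled member of highest level, all members of lists of up to 20 and the 10 highest by RPKM. Socs5, Socs6, Zfp36, Nlrp3, Aim2, Casp1, Casp4, Sqstm1 and Txnrd1 were named after their values were seen. The alternatives were DESeq2 1.42.0, limma-voom and limma on RPKM (3.58.1), other scalings and filters, summed transcripts and left-out samples. A few list members are counted but not reported by name here.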

Additional observations from a re-analysis of the deposited data

How the results depend on the processing

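The scaling mattered most. Total-count scaling, added after the data had been seen, called 1723 genes higher and 7621 lower, 3416 of them at least 2-fold lower, and limma on log2 (RPKM + 0.5), which also scales by totals, called 1585 higher, 7024 lower and 859 at least 2-fold higher. The median log2 fold change of 7 of 30 lists changed sign under each of these. The genes whose sign turned under total counts and under RPKM were Lyz2 (-0.38 and -0.39), Hmgcs1 (-0.35 and -0.34), Mki67 (-0.46 and -0.45), Lbp (-0.19 and -0.094), Nfkbid (-0.51 and -0.46), Ccl6 (-0.54 and -0.54), Ifitm6 (-0.28 and -0.27), Aldoa (-0.35 and -0.34), Fth1 (-0.31 and -0.31), Gpnmb (-0.43 and -0.43), Tmsb4x (-0.024 and -0.024), Tnip2 (-0.0020 and -0.0083) and Cyld (-0.16 and -0.16), with the values in that order. Without a filter on low counts only Ccl6 turned (-0.0036). DESeq2, limma-voom, RLE size factors, summed transcripts and a fit of the 6 WT samples alone kept all 4 counts within 1.5 times. The fit of the 6 WT samples alone lost 7 calls named above, at adjusted p from 0.0505 to 0.0842 (edgeR). They were those of Traf3, Irak4, Tbxas1, Lss, Msmo1, B2m and Tlr9. Leaving out single samples or replicates gave 2918 to 3801 genes higher and 2905 to 3695 lower, of which 1521 to 1639 and 1471 to 1558 at least 2-fold, and 0 to 24 genes with an interaction. It turned the sign of genes that were not called, whose log2 fold changes ranged as follows: Csf1r (-0.12 to 0.043), Mki67 (-0.054 to 0.27), Nfkbid (-0.12 to 0.28), Mif (-0.17 to 0.031), Ccl6 (-0.0032 to 0.036), Ifitm6 (-0.11 to 0.54), Cd36 (-0.24 to 0.015), Gpnmb (-0.0059 to 0.31), Mcl1 (-0.18 to 0.068), Cd4 (-0.40 to 0.12) and Irf3 (-0.17 to 0.0058). With the replicate block, 3947 genes were higher and 4209 lower, 7 genes named above gained a call and none lost one. Of 229 called genes named in the text, 213 kept call and direction in every setting run, and 3, Cyld, Tnip2 and Tmsb4x, turned. The causes were not tested. At these depths 3 counts are 0.252 to 0.347 CPM, so genes with 10 or fewer reads in a group have a fold known only within the intervals given.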

Other observations

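Actb, the gene of cytoplasmic actin that is often used as a reference in quantitative PCR, was not constant in these cells. It had 4341, 4910 and 4751 CPM untreated and 10406, 9606 and 9693 CPM with LPS, a rise of 1.09 ± 0.09 (adjusted p = 8.64e-08, edgeR), with no overlap between the groups. By total counts the rise was 0.53 and still called, and in KO cells it was 1.05. Tmsb4x, which encodes the actin-binding peptide thymosin beta 4, had 1748, 2341 and 2303 CPM untreated and 2647, 3495 and 3044 CPM with LPS (0.52 ± 0.13), but -0.02 by total counts, where it was not called.

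Receptor tyrosine kinase genes that serve as markers of other cell types also changed. Kdr, the receptor of VEGF on endothelium, rose from 20.3, 19.7 and 21.7 to 114, 121 and 87.9 CPM (2.39 ± 0.14, adjusted p = 3.06e-09), while Vegfa, the gene of its ligand, fell. Kit, the stem cell factor receptor of mast cells, fell from 15, 22.4 and 21.5 to 6.29, 12.5 and 8.87 CPM (-1.07 ± 0.22, adjusted p = 0.000938). Neither had overlapping groups.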
